A study of Mus musculus with 24 samples.

Results

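The genes described here are 10 transcription regulators that switch on late meiotic and spermatid genes: *Crem*, *Fhl5*, *Rfx2*, *Rfx4*, *Sox30*, *Mybl1*, *Tcfl5*, *Tbpl1*, *Taf7l* and *Pou5f2*. They were taken by symbol from count tables that list 24456 genes, and all 10 were found and passed the filter on low counts. The study followed the first wave of spermatogenesis in testes of wild-type (WT) mice and of mice lacking ATAD2, a bromodomain protein of chromatin that is also an ATPase, and asked how transcription changes when it is lost. Testis RNA was sequenced from 4 WT and 4 knockout (KO) libraries at each of days 20 and 22 postpartum (PP) and from 2 of each genotype at each of days 24 and 26. KO mice were homozygous for *Atad2* LacZΔNeo-Exon12, an allele in which a *lacZ* cassette is spliced to the upstream exons and makes a fusion protein described as non-functional, and from which the *neo* cassette and an exon were removed by crossing to mice with a ubiquitous *CMV*-driven Cre. The loss therefore applies to every cell of the animal and not to germ cells alone. The WT libraries carried neither change, and no library came from a treated animal. The labels give the tissue as testis, whereas their extraction text also mentions purified germ cell fractions. Transcripts of somatic cells were present in every group, with summed Sertoli cell markers of 1025 to 2294 and summed Leydig cell markers of 157.3 to 1681 CPM (counts scaled to the size of each library). The study describes its replicates as biological, but the labels do not say that they were separate animals, so p-values measure the spread between these samples.

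Male germ cells change their transcription program in steps. In pachytene spermatocytes the MYB family factor MYBL1 (A-MYB) turns on meiotic genes and the precursors of piRNAs, and the basic helix-loop-helix factor TCFL5 works on many of the same genes. In round spermatids an activator form of CREM, together with its LIM-only partner FHL5 (also called ACT), switches on the genes of sperm structure and DNA packaging. RFX2, and in the same winged-helix family RFX4, bind X-box elements found at genes of cilia and of the sperm tail, and SOX30 is an HMG-box factor needed for the round spermatid program. Germ cells also carry variants of the general initiation machinery: TBPL1 (TRF2) is a relative of the TATA-binding protein, and TAF7L, encoded on the X chromosome, is a relative of the TFIID subunit TAF7. POU5F2 (SPRM1) is a POU-domain factor of spermatocytes and spermatids. RNA of whole tissue does not tell fewer cells of a type from less RNA per cell.

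Upstream sequences are shown for 4 members on which the results turn, the 3 that rose most between days 20 and 26 and the 1 that fell. Each is the 250 bases before a RefSeq transcription start on build GRCm38.p6, written 5′ to 3′ on the strand of the gene. The *Fhl5* sequence is at chr4:25242853-25243102 on the minus strand, *Sox30* at chr11:45980060-45980309 on the plus strand, *Rfx2* at chr17:56831009-56831258 on the minus strand and *Taf7l* at chrX:134476491-134476740 on the minus strand. Capitals mark every match, on either strand, to 5 short motifs: the CRE half-site TGACG bound by CREM, the X-box half-site GTTGCC bound by RFX factors, the MYB core AACGG, the SOX core ACAAT and the E-box CACGTG.
Fhl5: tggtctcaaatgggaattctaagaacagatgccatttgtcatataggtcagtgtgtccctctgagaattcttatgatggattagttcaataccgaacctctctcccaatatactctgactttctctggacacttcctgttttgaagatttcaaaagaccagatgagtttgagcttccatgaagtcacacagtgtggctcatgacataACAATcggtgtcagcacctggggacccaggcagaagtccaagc
Sox30: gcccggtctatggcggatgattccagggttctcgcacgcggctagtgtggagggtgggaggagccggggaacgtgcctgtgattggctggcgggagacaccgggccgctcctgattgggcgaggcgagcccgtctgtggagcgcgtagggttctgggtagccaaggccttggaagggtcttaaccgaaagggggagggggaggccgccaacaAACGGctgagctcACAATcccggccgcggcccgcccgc
Rfx2: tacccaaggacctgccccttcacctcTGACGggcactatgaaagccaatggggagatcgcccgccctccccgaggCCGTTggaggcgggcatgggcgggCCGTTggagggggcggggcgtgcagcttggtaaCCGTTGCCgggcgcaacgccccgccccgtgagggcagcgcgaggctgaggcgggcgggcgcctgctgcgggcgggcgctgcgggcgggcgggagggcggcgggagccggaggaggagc
Taf7l: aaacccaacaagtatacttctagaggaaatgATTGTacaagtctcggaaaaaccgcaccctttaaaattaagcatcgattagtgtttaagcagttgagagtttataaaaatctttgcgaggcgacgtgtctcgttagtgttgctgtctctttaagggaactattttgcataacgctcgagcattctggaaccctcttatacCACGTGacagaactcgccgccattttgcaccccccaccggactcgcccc

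Of 32851 promoters of the same length, 17.8% held TGACG, 10.4% held GTTGCC, 14.5% held AACGG, 27.7% held ACAAT and 6.02% held CACGTG. *Fhl5*, the partner of CREM, held 1 motif of the set, the SOX core at position -43 from the start, and no CRE half-site. A second RefSeq start of *Fhl5*, and one of *Rfx4*, were also searched and held none of the 5 motifs. *Sox30* held the MYB core at -38 and the SOX core at -25. *Rfx2* held the CRE half-site at -224, the MYB core at 3 positions (-175, -151 and -118) and the X-box half-site at -116, where it overlaps the last MYB core. *Taf7l* held the SOX core at -219 and the E-box at -49. Base composition differed, with a GC content of 76.0% for *Rfx2*, 68.0% for *Sox30*, 44.8% for *Taf7l* and 44.0% for *Fhl5*. Sequence was matched for 8 of the 10 members, *Crem* and *Mybl1* being the others. Of the matched members not shown, *Tcfl5* held the MYB core at 3 positions and *Pou5f2* at 1, *Rfx4* held the SOX core at 1 position before its first start, and *Tbpl1* held none of the 5 motifs. A match is a run of letters and not a binding site shown by these data.

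The members lie on 9 chromosomes of build mm10: *Crem* on 18 from 3266048 to 3337748, *Fhl5* on 4 from 25199908 to 25242876, *Rfx2* on 17 from 56775897 to 56831013, *Rfx4* on 10 from 84756062 to 84906538, *Sox30* on 11 from 45980310 to 46017994, *Mybl1* on 1 from 9667415 to 9700209, *Tcfl5* on 2 from 180621956 to 180642708, *Tbpl1* on 10 from 22703879 to 22731938, *Taf7l* on X from 134460118 to 134476490 and *Pou5f2* on 13 from 78024902 to 78026295. The counting used the strand and gave 1 value per gene, so the activator and repressor forms of *Crem* are not separated. *Crem*, *Tbpl1* and *Tcfl5* share exonic bases with a gene on the other strand (*Gm6225*, 472 bases; *Slc2a12*, 407 bases; *Col9a3*, 234 bases). *Pou5f2* is a single exon inside an intron of *Fam172a* on the same strand, and unspliced *Fam172a* RNA could therefore be counted as *Pou5f2*.

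The libraries held 10709667 to 19491935 assigned counts. *Atad2* itself was lower in every KO library than in every WT library of the same day, by 1.67, 1.13, 1.43 and 1.25 on the log2 scale at days 20 to 26. At day 26 it did not pass the test used below for the members (adjusted p = 0.0628 by edgeR). WT_d20_2, the second WT library of day 20, stood apart in its composition (13.7% of pairs with several alignments and 3.26% of counts from mitochondrial rRNA), and it was the lowest WT library of day 20 for *Rfx2*, *Rfx4* and *Sox30* and the highest for *Crem*, *Mybl1*, *Tbpl1* and *Taf7l*. Values without it are given where its removal ended or added a call of a member. KO_d22_4 stood apart too, with the lowest share of pairs with several alignments (4.74%) and of mitochondrial rRNA (0.17%) and with the lowest peritubular and macrophage marker scores of the KO libraries of day 22. A stage score, the mean log2 level of 9 round spermatid markers minus that of 8 pachytene markers, each centred on all libraries, described how far the germ cells of a library had advanced. It rose from -3.46 ± 0.71 (SD, n = 4) in WT at day 20 to -0.28 ± 0.24 at day 22 (n = 4), 1.67 ± 0.42 at day 24 (n = 2) and 2.38 ± 0.05 at day 26 (n = 2).

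Levels between genes were compared as CPM per kilobase of exon. In WT at day 20, *Tcfl5* had the highest level, 75.3 ± 12.4 (SD, n = 4) CPM per kilobase, followed by *Tbpl1* at 60.6, *Mybl1* at 51.4, *Taf7l* at 37.6, *Pou5f2* at 26.8, *Crem* at 18.8, *Rfx2* at 17.2, *Sox30* at 16.5 and *Rfx4* at 13.1, with *Fhl5* last at 0.69 ± 0.19. Ranges of neighbours in this order overlapped except between *Taf7l* and *Pou5f2* and between *Rfx4* and *Fhl5*. In WT at day 26 *Tcfl5* (104.6 ± 6.77, n = 2) and *Tbpl1* (89.7 ± 7.88) were still first, and *Fhl5* had moved from the last to the third place at 72.4 ± 14.7 CPM per kilobase. *Sox30* came next at 58.4 ± 0.72, ahead of *Mybl1* at 51.8, *Rfx2* at 41.1, *Crem* at 37.1, *Pou5f2* at 26.9, *Taf7l* at 26.9 and *Rfx4* at 19.6. The 2 libraries of each neighbour did not overlap except for *Pou5f2* and *Taf7l*.

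**Figure D1:**
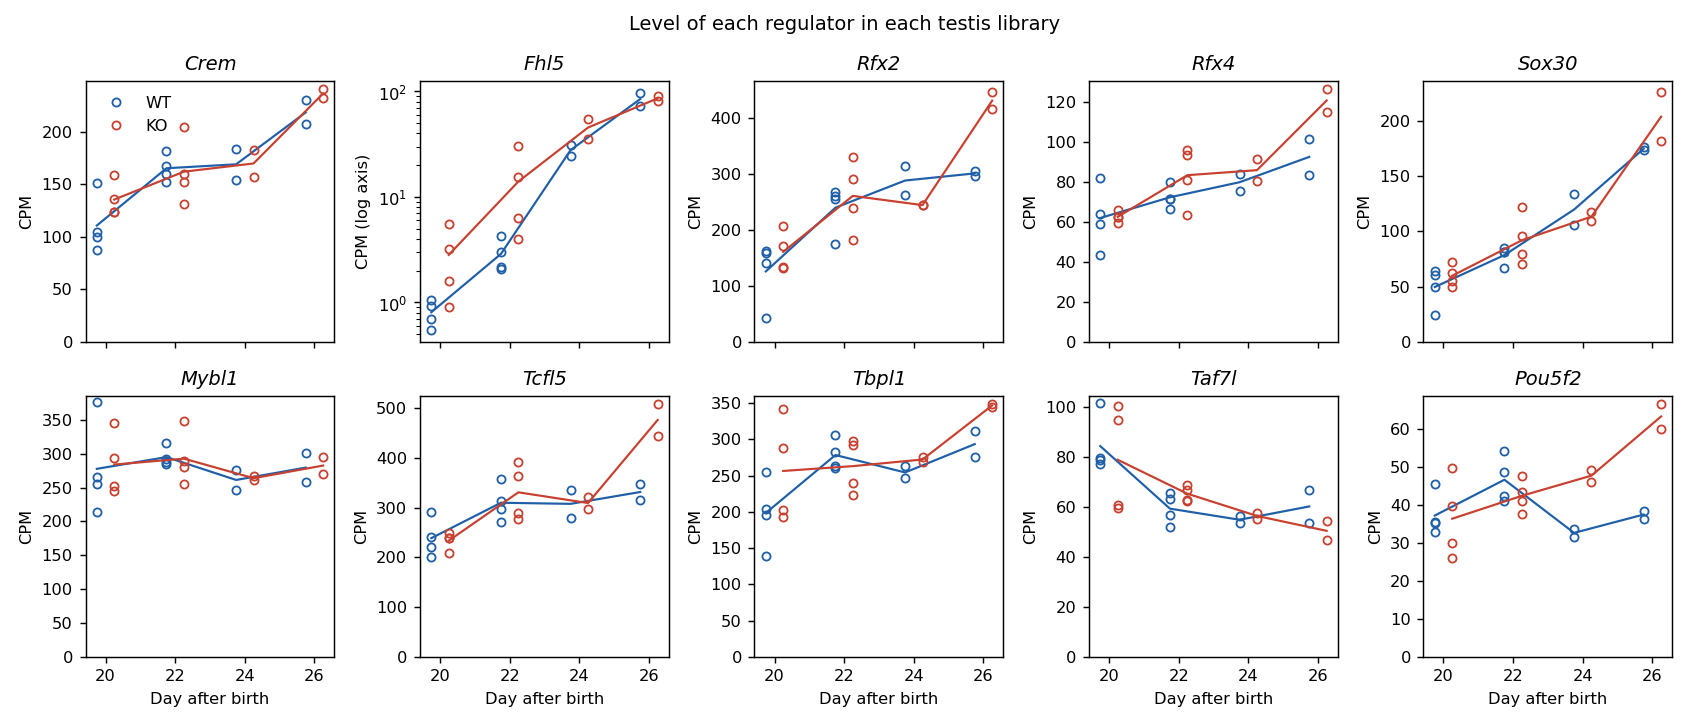
Level of each regulator in CPM (vertical axis, log scale for *Fhl5*) against day PP (horizontal axis). Each open circle is 1 library, WT in blue and KO in red, offset sideways, and lines join the group means. *Fhl5* rises from about 1 CPM to 72.7 CPM or more, *Mybl1* stays between 213.5 and 377.1 CPM, and *Taf7l* falls.

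The first comparison asked how the members change as spermatids appear in WT testes. Between days 20 and 26, 7 members rose, *Taf7l* fell, and *Mybl1* and *Pou5f2* did not pass the test (adjusted p under 0.05, quasi-likelihood test of edgeR over all genes). The 8 calls fell to 4 without WT_d26_2 and to 5 without WT_d26_1. Without the share of all genes in the same fits, such falls do not single out the members. In this comparison 42.5% of the 17170 genes tested were called, 24.4% as higher and 18.1% as lower. The median change of the members was 0.57 on the log2 scale and that of all genes -0.04.

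Among the activators of the spermatid program, *Fhl5* changed most. Its level in WT was 0.55, 1.05, 0.69 and 0.94 CPM at day 20, then 4.30, 3.01, 2.10 and 2.15 at day 22, 31.3 and 24.4 at day 24, and 97.0 and 72.7 at day 26. Each day lay above the day before with no overlap. The values at day 20 rest on 7 to 13 counts a library. From day 20 to day 26 *Fhl5* rose 106-fold (log2 fold change 6.73, SE 0.69, adjusted p = 3.8e-07 by edgeR), and from day 22 to day 24 by 3.28 on the log2 scale (SE 0.59, adjusted p = 0.00389), where it was the single member called among 5.92% of all genes.

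*Crem*, whose product FHL5 assists, was already abundant at day 20, with 100, 151.1, 87.9 and 104.2 CPM in the WT libraries. It stood at 181.8, 159.6, 168.0 and 152.2 CPM at day 22, at 184.2 and 154.1 at day 24 and at 207.3 and 230.0 at day 26. All libraries of day 22 lay above all of day 20, and most of the rise fell in that interval (0.58, SE 0.15, adjusted p = 0.00974 by edgeR, of 0.98, SE 0.18, from day 20 to day 26). Over the whole interval *Crem* rose 1.98-fold (adjusted p = 0.000137), beside the 106-fold rise of its partner.

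*Sox30* lay higher at each day than at the day before in WT. Its libraries gave 63.9, 24.5, 60.5 and 49.4 CPM at day 20, 81.6, 66.4, 85.0 and 81.2 at day 22, 134.2 and 105.4 at day 24 and 173.5 and 176.5 at day 26. No 2 days overlapped. The increase from day 20 to day 26 was 1.81 on the log2 scale (SE 0.25, adjusted p = 5.15e-06 by edgeR), and 1.55 without WT_d20_2.

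The RFX factors rose less. *Rfx2* had 162.4, 41.9, 157.7 and 140.2 CPM at day 20 in WT and 304.8 and 296.6 at day 26, a change of 1.26 (SE 0.33, adjusted p = 0.00495 by edgeR) that came to 0.93 without WT_d20_2 (adjusted p = 0.00181). *Rfx4* went from 81.8, 43.4, 58.9 and 63.8 CPM to 83.7 and 101.4 CPM, a change of 0.58 (SE 0.18, adjusted p = 0.0128), and of 0.40 without that library (adjusted p = 0.0371). The highest *Rfx4* library of day 20 lay just under the lowest of day 26.

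Among the factors present from pachytene spermatocytes on, *Tcfl5* rose and *Mybl1* and *Pou5f2* were not called. *Mybl1* had 265.0, 377.1, 213.5 and 255.6 CPM at day 20 and 258.2 and 301.0 at day 26, and the difference was 0.01 on the log2 scale (SE 0.18, adjusted p = 0.97 by edgeR). *Tcfl5* rose from 291.8, 220.9, 241.0 and 200.1 to 316.0 and 346.5 CPM (0.47, SE 0.16, adjusted p = 0.0194). *Pou5f2* had 45.5, 35.5, 33.0 and 35.2 CPM at day 20, 54.4, 42.5, 41.2 and 48.8 at day 22, 31.6 and 33.8 at day 24 and 36.5 and 38.6 at day 26. Both *Pou5f2* libraries of day 24 lay under all of day 22, but that step was not called (-0.52, SE 0.20, adjusted p = 0.17).

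Of the initiation factors, *Tbpl1* rose and *Taf7l* fell. *Tbpl1* went from 203.8, 255.4, 139.2 and 195.2 CPM at day 20 to 275.2 and 311.7 at day 26 (0.57, SE 0.21, adjusted p = 0.0317 by edgeR). *Taf7l* had 77.4, 101.8, 79.0 and 79.7 CPM at day 20, 52.0, 56.7, 65.7 and 63.2 at day 22, 56.5 and 53.5 at day 24 and 53.7 and 66.9 at day 26. It was the sole member that fell, and it did so between days 20 and 22 (-0.51, SE 0.15, adjusted p = 0.0205). Over days 20 to 26 the fall was -0.49 (SE 0.19, adjusted p = 0.0402), and -0.43 without WT_d20_2 (adjusted p = 0.0514).

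Steps between neighbouring days called fewer members. From day 20 to day 22, 5 members rose (*Crem*, *Rfx2*, *Sox30*, *Tcfl5* and *Tbpl1*) and *Taf7l* fell, where 20.0% of all genes were called, 12.9% as higher and 7.15% as lower. The calls of *Tcfl5* (0.38, SE 0.13, adjusted p = 0.0463) and *Tbpl1* (0.49, SE 0.17, adjusted p = 0.0487) were near the threshold, and without WT_d20_2 those of *Sox30* (0.43, adjusted p = 0.0705) and *Tcfl5* (0.33, adjusted p = 0.0867) were lost, while *Crem* came to 0.755, *Tbpl1* to 0.627 and *Rfx2* to 0.633, all still called. The 6 calls fell to 1 without WT_d22_1, 2 without WT_d22_4 and 3 without WT_d22_3 or WT_d20_4. Shares of all genes in those fits are not given, so this fall does not single out the members either. From day 24 to day 26 no member was called by edgeR over all days, where 0.274% of all genes were, although all 10 differences were positive. *Fhl5* alone had an unadjusted p under 0.05 (1.61, SE 0.66, adjusted p = 0.496), as did 1373 of the 17170 genes tested. DESeq2 called no member there and 1.19% of all genes. Shares given for DESeq2, here and below, are of the genes to which it gave an adjusted p. With only the libraries of these 2 days fitted, edgeR called *Fhl5* (1.58, adjusted p = 0.0124) and *Sox30* (0.52, adjusted p = 0.0417) and 7.95% of all genes.

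In KO testes the same interval of days 20 to 26 gave 8 calls, 7 higher and 1 lower, where 52.2% of all genes were called, 27.2% as higher and 24.9% as lower. *Fhl5* rose 30.4-fold (4.93, SE 0.60, adjusted p = 4.72e-06 by edgeR), *Sox30* 3.41-fold (1.77, SE 0.25) and *Rfx2* 2.68-fold (1.42, SE 0.33), and *Taf7l* fell by 0.65 on the log2 scale (SE 0.19, adjusted p = 0.00701). *Pou5f2* rose by 0.80 (SE 0.19, adjusted p = 0.00134), and *Tbpl1* had a difference of 0.44 (SE 0.21, adjusted p = 0.0818, and 0.0416 without WT_d20_2). *Mybl1* had a difference of -0.01 (SE 0.18). The difference between genotypes in the change from day 20 to day 26 was tested itself and was called by edgeR for no member and no gene (0%). At an unadjusted p under 0.05 it held 2 members and 10.8% of all genes. For *Pou5f2* it was 0.79 (SE 0.27, adjusted p = 0.249), for *Tcfl5* 0.55 (SE 0.23, adjusted p = 0.349) and for *Fhl5* -1.80 (SE 0.95, adjusted p = 0.531). DESeq2 called no member in that test, and 1.33% of all genes.

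**Figure D2:**
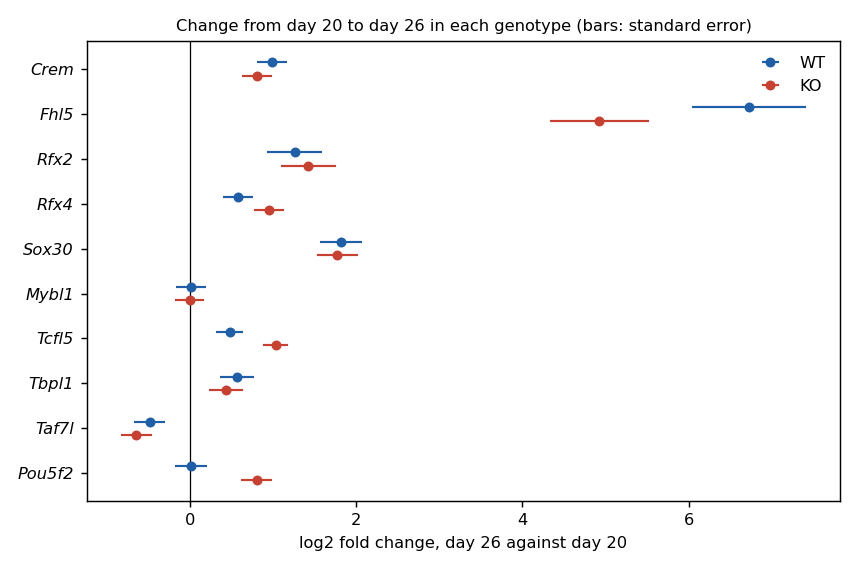
Log2 fold change from day 20 to day 26 (horizontal axis) of each regulator in WT (blue) and KO (red), with bars for the standard error. *Fhl5* stands apart at 6.73 in WT and 4.93 in KO, *Mybl1* lies at 0.01 and -0.01, and *Pou5f2* is at 0.01 in WT and 0.80 in KO.

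The main comparison asked whether loss of ATAD2 alters the regulators at each age. In the edgeR fit over all days *Fhl5* was the single member called at any day, at day 22, where it was higher in KO. DESeq2 also called *Fhl5* at day 20 and *Pou5f2* at day 26, and edgeR fitted to day 26 alone called 4 members, as given under those days.

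At day 20 none of the members was called by edgeR, where 3.34% of all genes were. An unadjusted p under 0.05 was found for 2 members and 12.5% of all genes, and DESeq2 called 1 of them, *Fhl5* (1.82, adjusted p = 0.0444), with 5.36% of all genes. *Fhl5* had 1.60, 0.92, 3.24 and 5.55 CPM in KO against 0.55, 1.05, 0.69 and 0.94 in WT. In 3 of the 4 KO libraries it lay above all WT libraries, and the difference was 1.83 on the log2 scale (SE 0.69, adjusted p = 0.222 by edgeR). *Tbpl1* had 342.4, 288.6, 202.0 and 192.7 CPM in KO, which overlapped WT (0.37, SE 0.17, adjusted p = 0.374). The other members had overlapping libraries and differed by 0.35 (*Rfx2*), 0.29 (*Crem*), 0.27 (*Sox30*), 0.03 (*Mybl1*), 0.01 (*Rfx4*), -0.03 (*Tcfl5*), -0.03 (*Pou5f2*) and -0.10 (*Taf7l*) on the log2 scale. The stage score moved with *Fhl5* here too, at -2.65 to 0.58 in KO and -4.17 to -2.47 in WT, as did the summed round spermatid markers, at 12.3 to 112 CPM in KO and 3.90 to 13.8 CPM in WT, and with the score as a covariate the *Fhl5* difference was -0.78 (adjusted p = 0.671). The scores of the genotypes hardly overlapped, so that fit does not tell stage from genotype, and the part of stage was not tested. Without WT_d20_2 the difference of *Rfx2* went from 0.35 to 0.05, that of *Sox30* from 0.27 to 0.03 and that of *Crem* from 0.29 to 0.46 (adjusted p = 0.0567), and no member was called.

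At day 22 *Fhl5* had 6.29, 30.4, 15.4 and 4.02 CPM in KO against 4.30, 3.01, 2.10 and 2.15 in WT. KO_d22_2 and KO_d22_3 were the high libraries, and KO_d22_4, the library of unusual composition, lay inside the WT range. *Fhl5* was 4.91-fold higher in KO (log2 fold change 2.30, SE 0.53, adjusted p = 0.0293 by edgeR), where 2.51% of all genes were called and 1.26% were called as higher. Without KO_d22_4 the difference was 2.60 (adjusted p = 0.00835). The call was lost without KO_d22_2 (1.58, adjusted p = 0.137) and without any 1 of WT_d22_2, WT_d22_3 and WT_d22_4. Over all fits that left out 1 library, the *Fhl5* difference lay between 1.58 and 2.60. It was also lost with day 22 fitted alone (2.30, adjusted p = 0.15), where 0.438% of all genes were called, and DESeq2 made it (2.30, adjusted p = 0.00273) with 4.37% of all genes. The stage of the libraries moved with this result: the stage score was 0.02 to 1.72 in the KO libraries and -0.53 to 0.004 in the WT libraries, and the 2 KO libraries with the highest *Fhl5* also had the highest scores (1.72 and 1.15). The summed level of all 9 round spermatid markers was 100.6 to 376.6 CPM in KO and 68.5 to 109.5 CPM in WT, and that of all 7 elongating spermatid markers 72.2 to 552.3 CPM in KO and 31.1 to 86.1 CPM in WT, with no marker at 0 in either group. The *Fhl5* difference fitted together with this score was 0.96 and not called (adjusted p = 0.299), and 0.396% of all genes were called in that fit. The scores of the genotypes did not overlap, so that fit does not tell stage from genotype, and the part of stage was not tested. The other members had overlapping libraries at this day and differed by 0.23 (*Sox30*), 0.20 (*Rfx4*), 0.14 (*Taf7l*), 0.12 (*Rfx2*), 0.09 (*Tcfl5*), -0.01 (*Mybl1*), -0.03 (*Crem*), -0.08 (*Tbpl1*) and -0.14 (*Pou5f2*).

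**Figure D3:**
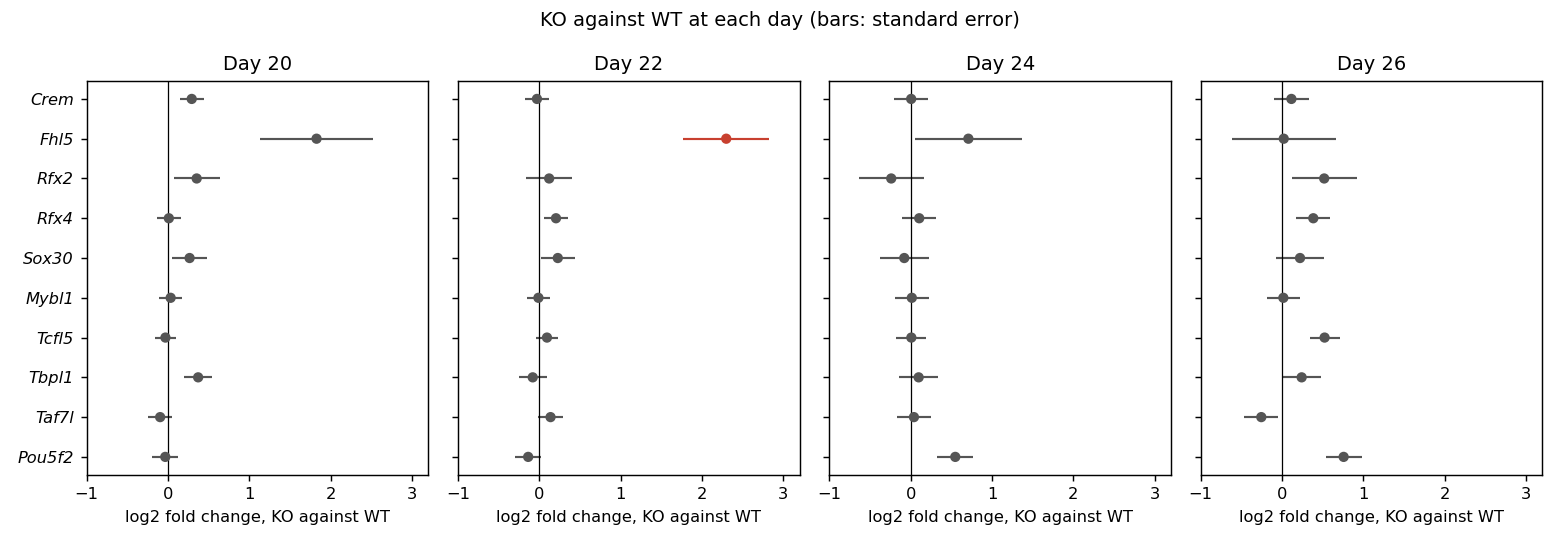
Log2 fold change of KO against WT (horizontal axis) for each regulator at each day, with bars for the standard error and the called value in red. *Fhl5* goes from 1.83 and 2.30 at days 20 and 22 to 0.71 and 0.02 at days 24 and 26, and *Pou5f2* from -0.03 and -0.14 to 0.55 and 0.76.

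At day 24 no member was called by edgeR or by DESeq2, where edgeR called 0.0874% and DESeq2 0.243% of all genes. An unadjusted p under 0.05 was found for 1 member, *Pou5f2*, and 5.23% of all genes. *Fhl5* had 55.4 and 35.6 CPM in KO against 31.3 and 24.4 in WT, with no overlap and a difference of 0.71 (SE 0.65). *Pou5f2* had 46.2 and 49.4 CPM in KO against 31.6 and 33.8 in WT, also without overlap (0.55, SE 0.22, adjusted p = 0.776 by edgeR). Every KO library was higher for 3 members (22.6% of all genes) and lower for 1 (21.4% of all genes), *Rfx2*, with 243.4 and 244.7 against 313.9 and 262.0 CPM. Separation in either direction, found for 4 of the 10 members, was found for 44.0% of all genes. *Tbpl1*, also higher in every KO library, differed by 0.10, and the overlapping members by 0.10 (*Rfx4*), 0.04 (*Taf7l*), 0.01 (*Mybl1*), 0.01 (*Tcfl5*), 0.01 (*Crem*) and -0.08 (*Sox30*).

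At day 26 the members stood higher in KO for the most part, but none was called by edgeR in the fit over all days, where 0.0466% of all genes were. *Atad2*, lower in every KO library, was not called in that fit either (-1.25, SE 0.255, adjusted p = 0.0628). An unadjusted p under 0.05 was found for 2 members, *Pou5f2* and *Tcfl5*, and 11.5% of all genes. The KO libraries lay above the WT libraries for 7 members, where this held for 27.8% of all genes. The median difference was 0.23 on the log2 scale, beside -0.04 for all genes. *Pou5f2* had 60.1 and 66.8 CPM in KO against 36.5 and 38.6 in WT (0.76, SE 0.22, adjusted p = 0.203 by edgeR). *Tcfl5* had 443.5 and 508.6 CPM in KO against 316.0 and 346.5 in WT (0.52, SE 0.19, adjusted p = 0.279). *Rfx2* followed with 415.7 and 445.5 against 304.8 and 296.6 CPM (0.52, SE 0.40, adjusted p = 0.648), and *Rfx4* with 115.2 and 126.4 against 83.7 and 101.4 CPM (0.38, SE 0.21, adjusted p = 0.495). *Fhl5* was alike in its range in both genotypes, 90.7 and 81.6 CPM in KO and 97.0 and 72.7 in WT (0.02, SE 0.64). *Tbpl1* (0.24), *Sox30* (0.22) and *Crem* (0.12) were higher in every KO library but not called, and *Mybl1* (0.02) and *Taf7l* (-0.26) overlapped.

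The calls at day 26 differed between fits, and the cause was not tested. With the libraries of day 26 fitted alone, 2 a genotype, edgeR called *Pou5f2* (0.77, adjusted p = 0.00268), *Rfx2* (0.53, adjusted p = 0.00661), *Tcfl5* (0.54, adjusted p = 0.00945) and *Rfx4* (0.40, adjusted p = 0.0391), all higher in KO, and 12.8% of all genes. DESeq2 over all days called *Pou5f2* alone (0.81, adjusted p = 0.0496), with 0.948% of all genes. Pachytene markers moved in the same direction as these members: the summed level of all 8 was 6081 to 6174 CPM in KO and 4772 to 5101 CPM in WT, with none at 0 and none called (median difference 0.26). The summed markers of 7 other lists separated the genotypes too, with no marker called. Higher in KO were elongating spermatids at 2996 to 3058 CPM against 1779 to 2868 in WT, round spermatids at 696.2 to 769.2 against 674.2 to 686.2, and Sertoli cells at 1254 to 1264 against 1025 to 1182, although the median difference of the Sertoli markers was -0.15. Lower in KO were peritubular cells at 269.7 to 312.5 against 362.5 to 436.1, Leydig cells at 846.6 to 997.5 against 1029 to 1681, spermatogonia at 138.5 to 139.9 against 154.9 to 170, and early meiosis at 1020 to 1034 against 1094 to 1197. The part of these cells in the result was not tested. For *Pou5f2*, the host gene *Fam172a* lay in the other direction, with 24.8 and 32.9 CPM in KO and 35.7 and 35.7 in WT (-0.31, SE 0.16, adjusted p = 0.467). At day 24 *Fam172a* was higher in every KO library, with 39.72 and 38.25 CPM against 35.87 and 35.80 in WT (0.12, SE 0.16). These counts are of exons and do not measure unspliced *Fam172a* RNA, whose part in *Pou5f2* was not tested.

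Over the unweighted mean of the 4 days, *Fhl5* was the member called by edgeR, 2.32-fold higher in KO (1.21, SE 0.32, adjusted p = 0.0307 by edgeR), where 7.08% of all genes were called and 3.52% were called as higher. Leaving out 1 library at a time ended this call in 9 of 24 cases, with values between 1.03 and 1.29. Fitted together with the stage score it was 0.28 (adjusted p = 0.598), where 1.35% of all genes were called. Over the mean of the days 5 of 9 round spermatid markers, 6 of 7 elongating spermatid markers and 1 of 5 Leydig markers were also called higher, and 2 of 5 peritubular markers lower, and their part in the result was not tested. *Pou5f2* was next, with a difference of 0.28 (SE 0.10, adjusted p = 0.0735), and 0.40 with the covariate (adjusted p = 0.0514). DESeq2 called both *Fhl5* (adjusted p = 0.00752) and *Pou5f2* (adjusted p = 0.0319), with 10.7% of all genes. *Mybl1* had the smallest difference, 0.01 (SE 0.09), and *Taf7l* the lone negative one, -0.04 (SE 0.09). A joint test of whether the genotype difference varied between days called no member (0.00582% of all genes were called). An unadjusted p under 0.05 was found for 1 member and 9.06% of all genes. That member was *Pou5f2* (adjusted p = 0.37), while *Fhl5* had an adjusted p of 0.582, and DESeq2 called no member and 1.56% of all genes.

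**Figure D4:**
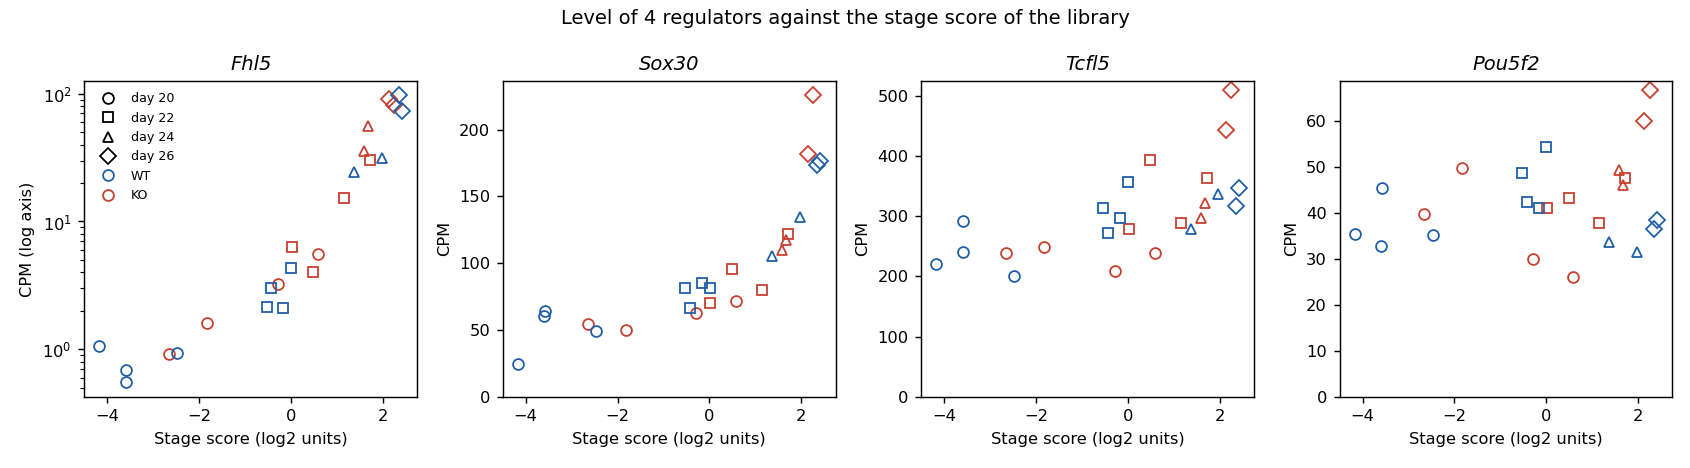
Level in CPM (vertical axis, log scale for *Fhl5*) of 4 regulators against the stage score in log2 units (horizontal axis), 1 symbol a library, WT in blue and KO in red, with the shape giving the day. *Fhl5* and *Sox30* climb with the score in both genotypes, and the KO libraries of day 26 lie above the WT libraries of that day for *Sox30*, *Tcfl5* and *Pou5f2*.

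The levels of *Fhl5* can be read beside the stage score library by library. KO_d20_4 had a score of 0.58 and 5.55 CPM of *Fhl5*, near the 4.02 CPM of KO_d22_4 at a score of 0.48 and the 4.30 CPM of WT_d22_1 at 0.004, while KO_d22_1 had more, 6.29 CPM, at a score of 0.02. KO_d22_2 had a score of 1.72 and 30.4 CPM, near the 31.3 CPM of WT_d24_1 at 1.97. The KO libraries of day 24 did not follow that order, with 55.4 CPM at a score of 1.67 and 35.6 CPM at 1.58, more *Fhl5* than WT_d24_1 at lower scores. The elongating spermatid markers, which the score leaves out, moved with *Fhl5* at that day, with sums of 709.9 to 1477 CPM in KO and 409 to 490.5 in WT and a median difference of 2.29, though none of the 7 was called. Summed Leydig markers were also higher in KO (846.2 to 1046 against 362.3 to 630.6 CPM). Peritubular markers were lower (437.4 to 441.5 against 495.1 to 551.7 CPM). Round spermatid markers overlapped (363.3 to 386.2 against 305.5 to 427.7 CPM), as did the remaining lists. The part of these cells in the *Fhl5* level was not tested. At day 26 the scores were 2.14 and 2.25 in KO and 2.35 and 2.42 in WT, and the lower KO score came with a higher pachytene part (0.595 and 0.615 against 0.371 and 0.348 in WT), while the round spermatid part was not lower (2.73 and 2.87 against 2.72 and 2.77). Score and level come from the same libraries, and no correlation was tested.

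Genes that the members are known to work with or act on were read from 5 lists. Of 12 spermatid genes of the type that CREM activates, 5 were higher in KO at day 20 (median of the list 3.40 on the log2 scale, all genes 0.005) and 7 at day 22 (median 2.06, all genes 0.01), while none was called at days 24 (median 0.74) and 26 (median 0.36). Of all genes, 3.34%, 2.51%, 0.0874% and 0.0466% were called at the 4 days. *Gapdhs*, the glycolytic enzyme of the sperm tail, differed by 4.45 (SE 0.90, adjusted p = 0.011 by edgeR) and *Odf1*, of the outer dense fibres, by 3.47 (SE 0.71, adjusted p = 0.0114) at day 20, and by 3.63 (adjusted p = 0.047) and 2.78 (adjusted p = 0.0505) without KO_d20_4. At day 22 *Hspa1l*, a spermatid heat shock protein gene, was 6.48-fold higher (adjusted p = 0.018), and 3.34-fold without KO_d22_2 (adjusted p = 0.0732). *Camk4*, a calcium-dependent kinase gene, was 2.32-fold higher (adjusted p = 0.0302), and *Prm1*, encoding protamine, was 46.2-fold higher (adjusted p = 0.0302), and 16.7-fold without KO_d22_2 (adjusted p = 0.133). *Prm1* was at 0.17 to 1.13 CPM in WT and 1.34 to 65.3 CPM in KO at day 22. *Gapdhs* was at 0.11 to 0.94 CPM in WT at day 20, so both differences rest on low WT levels. Beside them, 9 of 9 round spermatid markers were called higher at day 20 and 0 of 9 at day 22 (median 1.21), and 3 of 7 elongating spermatid markers at day 20 and 4 of 7 at day 22 (median 4.46). All 7 elongating spermatid markers are also among the 12 spermatid genes, so those counts repeat the same genes. With the stage score as a covariate, or with 1 day fitted alone, none of the 12 spermatid genes was called at either day, but calls over all genes fell as well, to 0.0349% and 0.396% with the covariate and to 0.0328% and 0.438% with 1 day alone. Leaving out 1 library at a time, the calls ranged from 0 (without WT_d20_2) to 6 at day 20 and from 0 (without KO_d22_2) to 8 at day 22. Calls over all genes moved in such fits too, at day 20 to 1.08% without KO_d20_4 and 4.55% without KO_d20_2. Shares without WT_d20_2 or KO_d22_2 are not given, so these ranges do not single out the list.

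Of 12 axoneme and cilium genes of the type that RFX factors bind, 3 were higher in KO at day 20, where 3.34% of all genes were called, and none at days 22 to 26. They were *Spag6l*, of the central apparatus (3.27, SE 0.55, adjusted p = 0.0053 by edgeR), *Foxj1*, a master factor of motile cilia (2.36, SE 0.45, adjusted p = 0.00922), and *Tekt4*, of the axoneme (1.09, SE 0.23, adjusted p = 0.011), none of them called with the covariate, with which 0.0349% of all genes were. Leaving out 1 library, *Spag6l* ranged from 2.82 to 3.99, *Foxj1* from 1.86 to 3.06 and *Tekt4* from 0.93 to 1.33. The list median was 0.15 at day 20, and at day 26 it was 0.28. Of 12 pachytene genes of the type that MYBL1 activates, none was called at any single day and 1 over the mean of the days, where 7.08% of all genes were. That gene was *Spo11* (0.28, SE 0.08, adjusted p = 0.0326), called in 15 of the 24 fits that leave out 1 library. *Spo11*, which makes meiotic DNA breaks, had the smallest p of that list at day 26 (0.60, SE 0.18, adjusted p = 0.203), followed by *Ccna1*, the meiotic cyclin A gene (0.60, SE 0.23, adjusted p = 0.305).

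Of 14 other genes of germ cell transcription control tested, 3 were higher in KO at day 20, where 3.34% of all genes were called, and 1 at day 22, where 2.51% were. The first were *Hsfy2* (4.10, SE 0.87, adjusted p = 0.0129 by edgeR), *Spz1* (2.97, SE 0.64, adjusted p = 0.0138) and *Kif17*, not itself a transcription factor but a kinesin that carries FHL5 out of the spermatid nucleus (2.22, SE 0.50, adjusted p = 0.0173), and the last was *Ctcfl*, the testis relative of CTCF (0.73, SE 0.18, adjusted p = 0.0355). Leaving out 1 library at a time gave 0 to 4 calls at day 20 and 0 to 3 at day 22. Without KO_d20_4 it gave 0 at day 20, where 1.08% of all genes were called, and without KO_d22_2 it gave 0 at day 22. Over all fits that left out 1 library, *Hsfy2*, 17.2-fold higher in the full fit, ranged from 10.4-fold to 39.6-fold. *Spz1*, 7.83-fold higher, ranged from 4.8-fold to 9.91-fold, and both lower values were without KO_d20_4. *Hsfy2* was at 0.06 to 0.79 CPM in WT at day 20, so its fold rests on a low WT level. Of 19 paralogues and general counterparts of the members, none was called at any day. *Rfx7* differed by -0.26 at day 20 (SE 0.09, adjusted p = 0.175) and *Fhl3* by -1.12 at day 26 (SE 0.33, adjusted p = 0.198). With age in WT, all 12 spermatid genes rose (median 8.71), as did 8 of the 12 axoneme genes (median 0.93) and 5 of the 12 pachytene genes (median 0.23, 1 lower), where 24.4% of all genes were called as higher and 18.1% as lower.

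**Figure D5:**
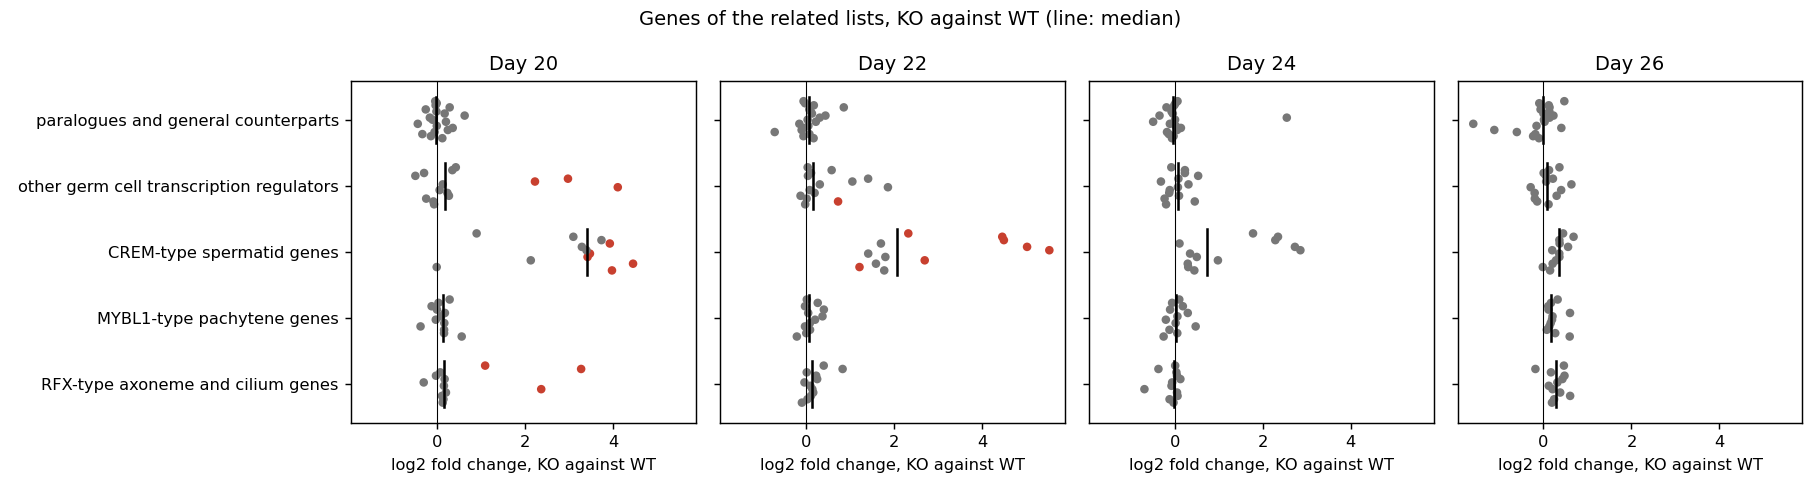
Log2 fold change of KO against WT (horizontal axis) for each gene of 5 related lists (rows) at each day, with called genes in red and a line at the list median. Called genes lie to the right at days 20 and 22, mostly among the 12 spermatid genes, and none is called at days 24 and 26.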

How the data were processed

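Total RNA was ribosome-depleted and sequenced from strand-marked libraries as read pairs. The authors aligned reads to mm10 with STAR 2.7.11b and counted pairs in exons by strand with HTSeq, per the labels and the study's methods, leaving out pairs that aligned to several places, and deposited 1 table of raw gene counts a library. Tallies of unassigned pairs, 53.7% to 69.0% of a table, were left out. Genes were placed by symbol with GENCODE M21.

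Counts were scaled by TMM, filtered with filterByExpr (minimum count 10, leaving 17170 genes) and fitted once with edgeR 4.0.16 under R 4.3.3 (robust quasi-likelihood, 8 groups, all 24 libraries), so that the spread was estimated from every group together. Two-sided p-values were adjusted over the genes tested (Benjamini-Hochberg). SE is the log2 fold change divided by the square root of F. On simulated counts for the mean of the days, 83 of 100 genes changed 2-fold and 95 of 100 changed 4-fold were recovered over 17190 genes. Alternatives were DESeq2 1.42.0 (the study used DESeq2 1.22.2, per its processing notes), its size factors in edgeR, no filter, no robust fit, 1 or 2 days fitted alone, a replicate block, the stage score as covariate and leaving out each library. No 2 libraries of a group agreed within sampling noise.

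All 10 members are named in the comparisons of genotype at each day. From each list, up to 3 genes with the smallest p of a comparison could be named. The members, the gene lists and these tests were chosen with earlier results of these data known. For day 20 the study's text states a lower replicate number than the labels; every labelled library was kept.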

Additional observations from a re-analysis of the deposited data

Results flagged for a closer look

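Among the 40 sets of 4 libraries (10 members, 2 genotypes, days 20 and 22), 2 held a library far from the other 3 by Dixon's test, where chance gives about 1 in 20. *Rfx2* was at 173.8 CPM in WT_d22_2, under the 255.1 to 268.0 CPM of the other WT libraries of day 22. *Taf7l* was at 101.8 CPM in WT_d20_2, over the 77.4 to 79.7 CPM of the other WT libraries of day 20, and WT_d20_2 is also the library that stood apart in its composition. The part of the libraries' composition in these values was not tested.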

How the results depend on the processing

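The counts of members called stayed within 1.5 times with DESeq2 size factors, no filter and no robust fit. With DESeq2 they became 1 at day 20, 1 at day 26 and 2 over the mean of the days. With the stage score as covariate they became 0 at day 22, 0 over the mean of the days, 0 in WT for day 22 against 20, day 24 against 22 and day 26 against 20, and 5 in KO for day 26 against 20. Calls over all genes fell with them, to 0.396%, 1.35%, 0.0641%, 0%, 0% and 13.4% in these 6 comparisons. With only the days compared in the fit they became 0 at day 22, 4 at day 26, 2 for WT day 22 against 20 and 2 for WT day 26 against 24, with 0.438%, 12.8%, 15.3% and 7.95% of all genes called. Leaving out 1 library gave 0 to 1 at day 22, 0 to 2 over the mean of the days, 1 to 7 for WT day 22 against 20 (1 without WT_d22_1, 2 without WT_d22_4, 3 without WT_d22_3 or WT_d20_4) and 4 to 8 for WT day 26 against 20 (4 without WT_d26_2, 5 without WT_d26_1). Over the mean of the days it was 0 without WT_d20_3, WT_d22_4, KO_d24_1 or any WT library of day 24 or library of day 26, and 2 without KO_d20_4, WT_d20_1 or WT_d22_1. The cause of these shifts was not tested. Days 24 and 26 rest on 2 libraries a group, and *Fhl5* at day 20 in WT on 7 to 13 counts a library, which limits both. Mean levels under DESeq2 size factors moved by less than 1 SD in 78 of 80 groups. The alternatives for the steps between neighbouring days and for the related lists and their genes were chosen after seeing the data.

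Replicate numbers were not taken to pair the samples, because not every pair of same-numbered WT and KO libraries correlated above 0.1: the correlation was 0.07 to 0.41 at day 20, -0.46 to -0.03 at day 22, 0.39 at day 24 and 0.42 at day 26. Libraries were first centred on their group mean, so with 2 libraries a group both pairs of a day share 1 value. The values at days 24 and 26 therefore cannot show whether samples were paired. With the replicate number as a block, members called became 0 at day 22 (*Fhl5* 2.27, adjusted p = 0.0765 by edgeR), 0 over the mean of the days (*Fhl5* 1.21, adjusted p = 0.0609) and 2 for WT day 24 against 22, with 1.37%, 5.23% and 3.83% of all genes called. Under this block the sign changed for *Crem* at day 24 (-0.002) and from day 22 to day 24 in WT (-0.092), and for *Mybl1* (-0.11) and *Pou5f2* (-0.13) from day 20 to day 26 in WT.

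The sign of other differences changed in other settings, none of them called there. With DESeq2 size factors, *Mybl1* was 0.010 at day 22 and 0.082 in KO for day 26 against 20, as with DESeq2. Without the filter, *Crem* was 0.018 and *Mybl1* 0.039 at day 22, *Tcfl5* 0.014 for WT day 24 against 22 and *Mybl1* 0.021 for KO day 26 against 20. With only the days compared, these were 0.005 for *Mybl1* at day 22, 0.004 for *Tcfl5* and 0.038 for *Mybl1* with age in KO. With the stage score as covariate, KO against WT at day 20 was -0.78 for *Fhl5*, -0.29 for *Rfx2*, -0.17 for *Rfx4*, -0.24 for *Sox30*, 0.36 for *Taf7l* and 0.29 for *Pou5f2*. At day 22 it was 0.001 for *Crem*, -0.18 for *Rfx2*, -0.026 for *Sox30*, 0.17 for *Mybl1*, 0.11 for *Tbpl1* and 0.029 for *Pou5f2*, at day 26 -0.015 for *Mybl1*, and over the mean -0.031 for *Rfx2*, -0.019 for *Sox30* and 0.12 for *Taf7l*. In WT it was -1.12 for *Fhl5*, -0.029 for *Rfx4*, -0.005 for *Sox30* and 0.13 for *Taf7l* from day 20 to 22, and -0.26 for *Rfx2*, -0.013 for *Rfx4*, 0.15 for *Mybl1*, 0.21 for *Tbpl1* and 0.28 for *Taf7l* from day 22 to 24. It was -0.12 for *Rfx2* from day 24 to 26, -0.27 for *Rfx2* and 0.69 for *Taf7l* from day 20 to 26, and in KO 0.55 for *Mybl1* and 0.041 for *Taf7l*.

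Leaving out 1 library changed the sign of small differences. KO against WT ranged at day 20 from -0.14 to 0.17 for *Rfx4*, -0.076 to 0.20 for *Mybl1*, -0.099 to 0.078 for *Tcfl5*, -0.23 to 0.018 for *Taf7l* and -0.22 to 0.097 for *Pou5f2*. At day 22 it ranged from -0.16 to 0.059 for *Crem*, -0.015 to 0.26 for *Rfx2* and -0.10 to 0.05 for *Mybl1*, and at day 24 from -0.11 to 0.14 for *Crem*, -0.23 to 0.11 for *Sox30*, -0.052 to 0.10 for *Mybl1* and -0.10 to 0.15 for *Tcfl5*. At day 26 it ranged from -0.17 to 0.26 for *Fhl5* and -0.08 to 0.13 for *Mybl1*, and over the mean from -0.014 to 0.062 for *Mybl1*. In WT, day 22 against 20 ranged from -0.01 to 0.26 for *Mybl1*, day 24 against 22 from -0.10 to 0.13 for *Crem* and -0.15 to 0.089 for *Tcfl5*, and day 26 against 24 from -0.09 to 0.20 for *Rfx2*, -0.018 to 0.18 for *Mybl1*, -0.048 to 0.25 for *Tcfl5* and -0.036 to 0.25 for *Taf7l*. Day 26 against 20 ranged from -0.13 to 0.15 for *Mybl1* and -0.073 to 0.087 for *Pou5f2* in WT and from -0.088 to 0.10 for *Mybl1* in KO.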
